A study of Mus musculus with 3 samples.

Results

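The genes described here are 38 genes of the endoplasmic reticulum (ER), listed by symbol: chaperones, disulfide and prolyl isomerases, subunits of the translocon and of the signal peptidase, parts of the degradation route for misfolded proteins, and 3 transcription factors of the ER stress response. By role they are 11 chaperones and cochaperones (Hspa5, Hsp90b1, Hyou1, Calr, Canx, Dnajb9, Dnajb11, Dnajc3, Sdf2l1, Manf and Creld2) and 6 isomerases (Pdia3, Pdia4, Pdia6, P4hb, Txndc5 and Ppib). The entry genes are 10 of the translocon and signal recognition (Sec61a1, Sec61b, Sec61g, Tram1, Ssr1, Ssr2, Ssr3, Ssr4, Srp9 and Srp14) and 4 of the signal peptidase (Sec11c, Spcs1, Spcs2 and Spcs3). The remaining members are Xbp1, Atf4 and Ddit3, and 4 genes for degradation of misfolded proteins (Herpud1, Sel1l, Syvn1 and Edem1). All 38 were found among the 31053 genes of the count table, and none was used to define a cell class. The study profiled T cells from C57BL/6 mice bearing a subcutaneous B16-Ova or MC38-Ova tumour, harvested on day 14 and sorted as TCRB+ CD3+ CD90.2+ CD11b- cells. Both tumour models carry ovalbumin, and no untreated or tumour-free group was included. Cells of the 2 tumours carried different hashtags, were pooled and went through 1 10x Genomics capture, with antibody tags for PD-1, Tim-3 and biotin. The biotin tag reads the lectin L-Pha, a plant protein that binds β1,6-branched N-glycans on the cell surface. How many mice stand behind each hashtag is not given, so each tumour is 1 pool of cells, and the spread between the 2 pools is the only replicate spread.

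Proteins bound for the cell surface or for secretion enter the ER through the Sec61 channel, lose their signal peptide to the signal peptidase, and fold with the help of chaperones such as BiP (Hspa5) and of disulfide isomerases. N-glycans are attached in the same compartment, where the lectin chaperones calnexin (Canx) and calreticulin (Calr) hold glycoproteins until they are folded. When unfolded proteins accumulate, the sensors IRE1, ATF6 and PERK switch on the transcription factors Xbp1, Atf6 and Atf4, which raise chaperone and degradation genes, and under lasting stress Ddit3 (CHOP). Activated T cells are known to enlarge the secretory pathway as they divide and release cytokines and granule proteins.

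Of 19912 barcodes, 18429 had 500 genes or more with no more than 10% of UMIs from mitochondrial genes, and 6585 B16-Ova and 8407 MC38-Ova cells were assigned to 1 hashtag. Cells were classed by raw UMIs. CD8 cells had at least 2 UMIs of Cd8a and Cd8b1 and none of Cd4 or Foxp3 (1792 B16-Ova and 2544 MC38-Ova cells). Treg cells had Foxp3 and no Cd8a or Cd8b1 (777 and 960), CD4 cells had Cd4 and neither Foxp3 nor Cd8a or Cd8b1 (753 and 736), and innate-like cells had Cd3e, at least 2 UMIs of Fcer1g and Tyrobp, no Cd4 or Foxp3 and at most 1 UMI of Cd8a and Cd8b1 (455 and 780). The remaining 2808 and 3387 cells met no class rule. The sums held between 2592067 RNA UMIs (B16-Ova innate-like) and 20937848 (MC38-Ova CD8), and median depth ran from 4107 UMIs per cell in B16-Ova CD4 cells to 7358 in B16-Ova CD8 cells. Summed T cell markers stood at 4402 to 6469 CPM (UMIs of a gene scaled by the total UMIs of its sum) in the 8 sums, against 63.7 to 271.5 CPM for 10 macrophage markers and 6.8 to 340.2 CPM for 7 fibroblast markers. Cd8a and Cd8b1 were at 0 in Treg and CD4 cells and Foxp3 at 0 in all but Treg cells, as the class rules set. Some markers of other cells were uneven between pools: fibroblast markers stood at 340.2 CPM in MC38-Ova Treg cells against 6.8 in B16-Ova Treg cells, and 6 melanoma markers at 250.8 to 464.5 CPM in the CD8, CD4 and innate-like cells of B16-Ova against 31.6 to 38.6 CPM in those of MC38-Ova. In Treg cells the melanoma markers were higher in MC38-Ova, at 195.5 against 36.0 CPM. Results were therefore also computed without cells that held at least 3 UMIs of macrophage, fibroblast, melanoma or erythroid markers, and without cells that held any Mki67 or Top2a UMI, both chosen after seeing the data.

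Many of these genes are known targets of ATF6 and XBP1, which bind the ER stress response element (ERSE, CCAAT and CCACG with 9 bases between) and the related ERSE-II (ATTGG and CCACG with 1 base between) near the start site. RefSeq promoters (250 bases before to 50 bases after the start, GRCm38.p6) were at hand for 31 of the 38 genes and for 27025 genes in all. On either strand, ERSE was found in 8 of 31 members (25.8%) and in 0.137% of all genes, and ERSE-II in 2 members (6.45%) and in 0.0444% of all genes. The members were listed by symbol and not by these elements. Many are known targets of the factors that bind them, so the higher share is not an independent result. Of the 31 members with a promoter, 21 carry neither. Capitals mark the fixed bases of each element, and each is written 5′ to 3′ on the strand that carries it.
Hspa5, chr2:34772025-34772043, plus strand: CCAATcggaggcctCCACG
Hsp90b1, chr10:86705638-86705656, minus strand: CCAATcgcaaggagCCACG
Hsp90b1, chr10:86705533-86705551, plus strand: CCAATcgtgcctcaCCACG
Calr, chr8:84847075-84847093, plus strand: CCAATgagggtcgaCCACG
Canx, chr11:50325800-50325818, minus strand: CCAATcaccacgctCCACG
Dnajc3, chr14:118937827-118937845, plus strand: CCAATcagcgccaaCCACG
Creld2, chr15:88819520-88819538, minus strand: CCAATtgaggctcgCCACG
Pdia6, chr12:17266491-17266509, plus strand: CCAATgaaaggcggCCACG
Syvn1, chr19:6046532-6046550, plus strand: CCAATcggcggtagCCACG
Dnajb11, chr16:22857852-22857862, plus strand: ATTGGcCCACG
Herpud1, chr8:94386377-94386387, plus strand: ATTGGgCCACG

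Most elements lay close to the start site: that of Hspa5 ended 47 bases before it and that of Syvn1 26 bases before it, while the far copy of Hsp90b1 ended 194 bases before it. The UPRE core TGACGTGG, the site named for XBP1, was found in 1 member (Txndc5, chr13:38528045-38528052, minus strand) and in 0.714% of all genes. TGATGNAAT, a composite site bound by ATF4 and C/EBP factors, was found in 0 of the 31 and in 1.08% of all genes. A match is a description of letters in this window and not a binding site, and a missing match says only that these letters are not there.

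The 250 bases before the start site are printed for the 4 members that passed the L-Pha test in CD8 cells, and for Hspa5, the member best known as a stress reporter, which did not. They run 5′ to 3′ on the gene's strand, with the ERSE in capitals. Where the element lies on the other strand, the capitals show its reverse complement. No ERSE, ERSE-II or UPRE match was found in the windows of Sdf2l1 and Dnajb9.
Hspa5, chr2:34771840-34772089, plus strand: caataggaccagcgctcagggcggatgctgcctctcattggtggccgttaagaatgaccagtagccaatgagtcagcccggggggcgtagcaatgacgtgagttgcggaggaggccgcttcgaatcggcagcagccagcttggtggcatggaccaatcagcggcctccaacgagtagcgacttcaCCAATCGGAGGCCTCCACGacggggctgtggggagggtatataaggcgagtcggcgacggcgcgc
Hsp90b1, chr10:86705445-86705694, minus strand: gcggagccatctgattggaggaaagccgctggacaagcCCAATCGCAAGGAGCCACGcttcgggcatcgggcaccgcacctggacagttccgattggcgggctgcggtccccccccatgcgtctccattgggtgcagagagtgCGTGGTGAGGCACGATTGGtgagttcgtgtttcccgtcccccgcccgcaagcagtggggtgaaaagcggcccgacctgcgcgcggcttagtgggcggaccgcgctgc
Creld2, chr15:88819396-88819645, plus strand: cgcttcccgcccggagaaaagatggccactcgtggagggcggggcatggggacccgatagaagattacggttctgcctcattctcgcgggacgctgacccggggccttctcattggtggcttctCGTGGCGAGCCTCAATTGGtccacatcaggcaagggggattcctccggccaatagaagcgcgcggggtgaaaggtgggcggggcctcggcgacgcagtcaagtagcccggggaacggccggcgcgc
Sdf2l1, chr16:17132384-17132633, minus strand: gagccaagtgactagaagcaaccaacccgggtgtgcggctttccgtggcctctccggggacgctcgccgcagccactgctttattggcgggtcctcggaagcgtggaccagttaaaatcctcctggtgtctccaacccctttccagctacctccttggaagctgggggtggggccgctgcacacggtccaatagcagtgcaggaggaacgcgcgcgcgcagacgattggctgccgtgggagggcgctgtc
Dnajb9, chr12:44210069-44210318, minus strand: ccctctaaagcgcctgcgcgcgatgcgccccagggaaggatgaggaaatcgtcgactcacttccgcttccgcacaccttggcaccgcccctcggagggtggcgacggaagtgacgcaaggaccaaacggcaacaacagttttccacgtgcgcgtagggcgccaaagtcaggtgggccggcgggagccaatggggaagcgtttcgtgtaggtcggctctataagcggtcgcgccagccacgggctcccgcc

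The first comparison asked how the ER genes were distributed over the T cell classes. Together the 38 genes held the largest share of UMIs in Treg cells, with 8065 CPM in B16-Ova and 8139 CPM in MC38-Ova, and the smallest in innate-like cells, with 6364 and 6214 CPM. CD8 cells lay between at 7346 and 7119 CPM, and CD4 cells at 7074 and 7387 CPM. Treg cells were above every other class and innate-like cells below every other class in both pools, while the CD8 and CD4 values overlapped. These levels are scaled by total UMIs alone, where the median over all genes was 0.12 log2 higher in Treg than in CD8 cells. On the TMM scale of the test below, the member median for Treg against CD8 was 0.04, with 21 of 38 positive. Per cell, thinned to 2000 UMIs, the median share of UMIs from these genes was 0.75% and 0.7% in Treg cells, 0.65% in both pools of CD8 and of CD4 cells, and 0.6% and 0.55% in innate-like cells. Without thinning the medians were 0.744% and 0.71%, 0.646% and 0.643%, 0.662% and 0.667%, and 0.592% and 0.579%. Quartiles were 0.6% and 0.9% in B16-Ova Treg cells and 0.45% and 0.75% in B16-Ova innate-like cells, so single cells of the classes overlapped widely. By role, the signal peptidase genes showed the same order (954.0 and 937.6 CPM in Treg, 683.6 and 632.6 CPM in innate-like cells), while the degradation genes were lowest in CD8 cells (176.9 and 162.8 CPM, against 236.9 and 230.0 in Treg).

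**Figure D1:**
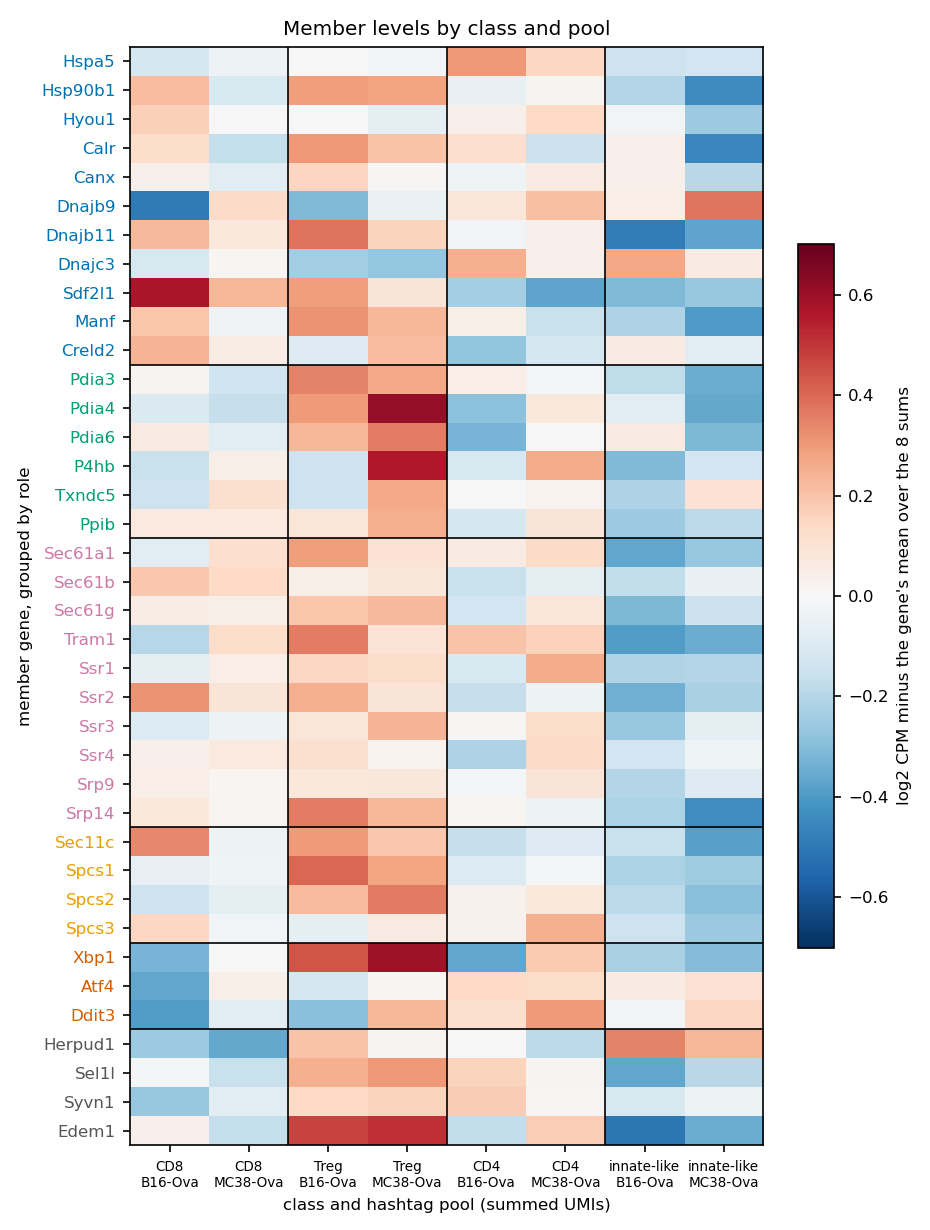
Each row is a member, coloured and boxed by role, and each column 1 class in 1 hashtag pool. Colour is log2 CPM, scaled by total UMIs alone, minus the gene's mean over the 8 sums. The Treg columns are high for most rows and the innate-like columns low, with Hspa5, Dnajb9, Dnajc3, Atf4, Ddit3 and Herpud1 departing from that pattern.

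By gene, the mean of the 2 pools was highest in Treg cells for 26 of the 38 members, and for 13 of them both Treg values lay above all 6 values of the other classes. Innate-like cells were lowest for 29 members, 18 of them below all other values. The same counts over all genes were not made, so these counts do not set the members apart from other genes. With this scaling by total UMIs, the median log2 difference over all genes was 0.12 for Treg against CD8 and −0.12 for innate-like against CD4. The ratio of the highest to the lowest class was small, from 1.09 (Txndc5) to 1.89 (Edem1), with a median of 1.36. Edem1, a lectin that sends misfolded glycoproteins to degradation, stood at 100.2 and 103.1 CPM in Treg cells (B16-Ova first, here and in all pairs of values), 64.24 and 81.47 in CD4, 74.07 and 64.52 in CD8 and 50.92 and 56.87 in innate-like cells. Its Treg values did not overlap with any other class.

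Other classes led for 12 members. Hspa5 was highest in CD4 cells at 825.8 and 739.9 CPM, against 671.1 and 661.6 in Treg, 618.0 and 654.8 in CD8 and 606.1 and 610.2 in innate-like cells. Atf4, Ddit3, Hyou1 and Spcs3 were also highest in CD4 cells. Sdf2l1, Creld2, Sec61b and Ssr2 were highest in CD8 cells, where both Sec61b values (626.4 and 605.6 CPM) lay above all others. Herpud1, Dnajb9 and Dnajc3 were highest in innate-like cells.

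Among the 3 transcription factors, Xbp1, which drives the enlargement of the ER in secretory cells, was at 89.1 and 99.04 CPM in Treg cells. In the other classes its values were 51.01 and 74.56 in CD4, 52.3 and 65.38 in CD8 and 55.94 and 53.13 in innate-like cells, all below the lower Treg value. Atf4, the effector of PERK and of amino acid shortage, was at 150.8 and 149.8 CPM in CD4, 142.4 and 147.6 in innate-like, 126.2 and 137.5 in Treg and 106.5 and 140.7 in CD8 cells, with both CD4 values just above all others. Ddit3 was low everywhere, at 35.02 and 39.78 CPM in CD4, 32.02 and 35.81 in innate-like, 26.45 and 38.02 in Treg and 24.67 and 30.61 in CD8 cells, and its classes overlapped. In the gene coordinates used, Ddit3 overlaps with another entry of that symbol and with Mars on the other strand. Whether its reads are split was not tested. In all, 13 members overlap with another counted gene, and whether counting used the strand is not given in the sources used here.

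The class differences were tested on the 8 sums with edgeR's quasi-likelihood test with the pool as a blocking term, and p-values were adjusted by Benjamini-Hochberg over 11188 genes, where all 38 members passed the filter on low counts. CD8 against CD4, Treg against CD4 and innate-like against CD4 share the CD4 sums. Fold changes below are log2 values ± SE on the test's TMM scale, which trims genes with extreme ratios and so can differ from the ratio of the CPM values. Under scaling by library size alone, the median over all genes lay at −0.13 for CD8 against CD4 and −0.12 for innate-like against CD4. It lay at 0.12 for Treg against CD8 and 0.13 for the L-Pha comparison in CD8 cells. On the TMM scale these medians were −0.01, 0.00, −0.01 and 0.00 in the same order. Members' differences on the TMM scale are thus relative to all genes.

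In CD8 against CD4 cells, 2 of 38 members passed the threshold, both higher in CD8, beside 6.88% of all genes in either direction and 3.3% higher. Sdf2l1 (chr16:17130138-17132383), a stress-induced partner of BiP cochaperones, rose from 54.59 and 49.78 CPM in CD4 to 95.55 and 75.6 CPM in CD8 cells, by 0.82 ± 0.12 (adjusted p 0.0109). Both CD8 values lay above both CD4 values, and the pools alone gave 0.93 and 0.71. Sec61b (chr4:47474658-47483242), the small β subunit of the translocon, rose from 494.3 and 525.0 to 626.4 and 605.6 CPM, by 0.39 ± 0.08 (adjusted p 0.0319). Its adjusted p was 0.0744 with library size scaling and 0.140 with only those 2 classes in the fit. Of the remaining members, the largest differences were Creld2 at 0.46 ± 0.15 (adjusted p 0.116) and Ssr2 at 0.42 ± 0.12 (adjusted p 0.0741). Over the members the median difference was 0.08 with 26 positive, but with library size scaling it was −0.04 with 14 positive, and no common direction can be given. The cell-cycle list was higher in CD8 (median 0.97 over 10 genes, 1 passing) and the dissociation-stress list lower (median −0.65 over 15 genes, 3 passing). Without cycling cells (any Mki67 or Top2a UMI), the same 2 members passed beside 11.8% of all genes. Sdf2l1 then differed by only 0.48 (adjusted p 0.0266) and Sec61b by 0.38 (adjusted p 0.00882). The part of either list in these differences was not tested.

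In Treg against CD4 cells, 0 of 38 members passed in edgeR's test, beside 3.35% of all genes. At an unadjusted p under 0.05 there were 17 members (44.7%, beside 18.2% of all genes), and DESeq2 called 1 (beside 4.46% of the genes it adjusted). Of the 38 differences 31 were positive, with a median of 0.18 against 0.00 over all genes tested, and 22 members were higher in both pools, 57.9% beside 31.3% of all genes. Spcs1, a signal peptidase subunit, came nearest at 345.8 and 317.2 CPM in Treg against 245.1 and 259.2 CPM in CD4 cells (0.38 ± 0.08, adjusted p 0.0552). Xbp1 differed by 0.58 ± 0.14 (adjusted p 0.0789), Pdia4, a disulfide isomerase, by 0.55 ± 0.16 (adjusted p 0.125), Sdf2l1 by 0.49 ± 0.12 (adjusted p 0.0804) and Edem1 by 0.47 ± 0.14 (adjusted p 0.126). Dnajc3, the BiP cochaperone p58IPK, was lower in Treg cells, at 132.3 and 130.1 CPM against 186.1 and 161.0 CPM (−0.41 ± 0.11, adjusted p 0.0918). With CD4 and Treg cells alone in the fit 7 members passed, 6 higher and 1 lower, where 7.19% of all genes passed. Without other-marker cells Dnajc3 alone passed (−0.45, adjusted p 0.037), beside 6.41% of all genes. Leaving out cells with any Mki67 or Top2a UMI, which made up 27.8% to 39.6% of Treg and CD4 cells, 4 members passed beside 7.36% of all genes, and Xbp1 then differed by 0.65 ± 0.12 (adjusted p 0.00782).

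In Treg against CD8 cells, Xbp1 (chr11:5520659-5525893) was the 1 member of 38 that passed, beside 15.5% of all genes in either direction and 8.41% higher. It was higher in Treg cells by 0.56 ± 0.14 (adjusted p 0.0308), with 0.63 in B16-Ova and 0.49 in MC38-Ova alone. The next largest differences, Pdia4 at 0.47 ± 0.15 (adjusted p 0.0832) and Edem1 at 0.42 ± 0.13 (adjusted p 0.0696), missed the threshold, and the member median was 0.04 with 21 positive (0.17 with 30 positive under library size scaling). Without cells that held UMIs of macrophage, fibroblast, melanoma or erythroid markers, 7 members passed beside 22.8% of all genes, and Xbp1 again differed by 0.61 ± 0.14 (adjusted p 0.0137).

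In innate-like against CD4 cells, Herpud1 (chr8:94386438-94395377), an ER membrane protein of the degradation machinery, was the 1 member of 38 that passed, beside 9.47% of all genes in either direction and 4.35% higher. It rose from 78.85 and 69.56 CPM in CD4 to 100.3 and 92.87 CPM in innate-like cells, by 0.51 ± 0.09 (adjusted p 0.0151), and was 0.47 and 0.54 in the pools alone. Most other members leaned the other way: 27 of 38 differences were negative, with a median of −0.07 against 0.00 over all genes. Tram1, a translocon-associated protein, was at 111.9 and 115.3 CPM against 168.5 and 164.4 CPM in CD4 cells (−0.43 ± 0.14, adjusted p 0.0989). Dnajb11, a BiP cochaperone, was at 69.83 and 75.76 CPM against 96.77 and 100.5 CPM (−0.31 ± 0.12, adjusted p 0.156).

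The second comparison asked which ER genes went with L-Pha binding, since the branched N-glycans it reads are built on proteins that pass through the ER. In each pool and class, UMIs were summed over the 25% of cells with the most and the 25% with the fewest L-Pha tag UMIs. The 16 sums were tested together with edgeR's quasi-likelihood test, which left 4 residual degrees of freedom, over 9700 genes. In CD8 cells 3 members rose and 1 fell in L-Pha-high cells, 4 of 38 beside 5.4% of all genes in either direction (2.72% higher and 2.68% lower). All 4 stand on the list of chaperones and cochaperones. DESeq2 called 1 of them, Hsp90b1.

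Sdf2l1 stood at 39.02 and 55.36 CPM in L-Pha-low and 119.4 and 88.15 CPM in L-Pha-high CD8 cells, a rise of 0.99 ± 0.24 (adjusted p 0.0376). Hsp90b1 (chr10:86690209-86705509), the ER HSP90 called GRP94, which folds integrins and Toll-like receptors, rose from 315.4 and 383.6 to 775.3 and 551.8 CPM, by 0.78 ± 0.16 (adjusted p 0.0246). Creld2 (chr15:88819646-88826683), a stress-induced ER protein, rose from 32.11 and 29.92 to 64.12 and 49.13 CPM, by 0.72 ± 0.19 (adjusted p 0.0479). For all 3, both high values lay above both low values. In B16-Ova alone the differences were 1.41, 1.09 and 0.79, and in MC38-Ova alone 0.61, 0.47 and 0.65. Whether the pools differ was not tested. Dnajb9 (chr12:44205559-44210326), the cochaperone ERdj4, which restrains IRE1, fell from 48.78 and 75.4 to 28.43 and 46.28 CPM, by 0.86 ± 0.18 on the log2 scale (adjusted p 0.0246), with −0.98 and −0.76 in the pools alone. Both high values lay below both low values, with the MC38-Ova high value close to the B16-Ova low value.

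The members did not move as 1 block. Of the 38, 30 had positive differences, with a median of 0.23 against 0.00 over all genes, and 24 were higher in both pools, 63.2% beside 33.8% of all genes. The 11 chaperones and cochaperones had a median of 0.47, the 6 isomerases 0.38 with all 6 positive, the 4 signal peptidase subunits 0.38, the 10 translocon and signal recognition genes 0.19, and the 4 degradation genes 0.05. The 3 transcription factors split. Xbp1 was at 61.13 and 72.98 CPM in high against 34.14 and 52.96 CPM in low cells (0.51 ± 0.17, adjusted p 0.0923). Atf4 was at 102.8 and 135.2 against 126.8 and 150.5 CPM (−0.36 ± 0.15, adjusted p 0.181) and Ddit3 at 20.61 and 31.76 against 35.77 and 32.32 CPM (−0.52 ± 0.22, adjusted p 0.181). Ssr2 (0.66 ± 0.22, adjusted p 0.098) and Pdia6 (0.65 ± 0.18, adjusted p 0.0538) followed the called genes in size. Hspa5 was at 652.4 and 662.0 against 577.6 and 644.5 CPM, a difference of −0.02 ± 0.14 on the TMM scale (adjusted p 0.947), and its promoter, like that of Hsp90b1, carries an ERSE.

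**Figure D2:**
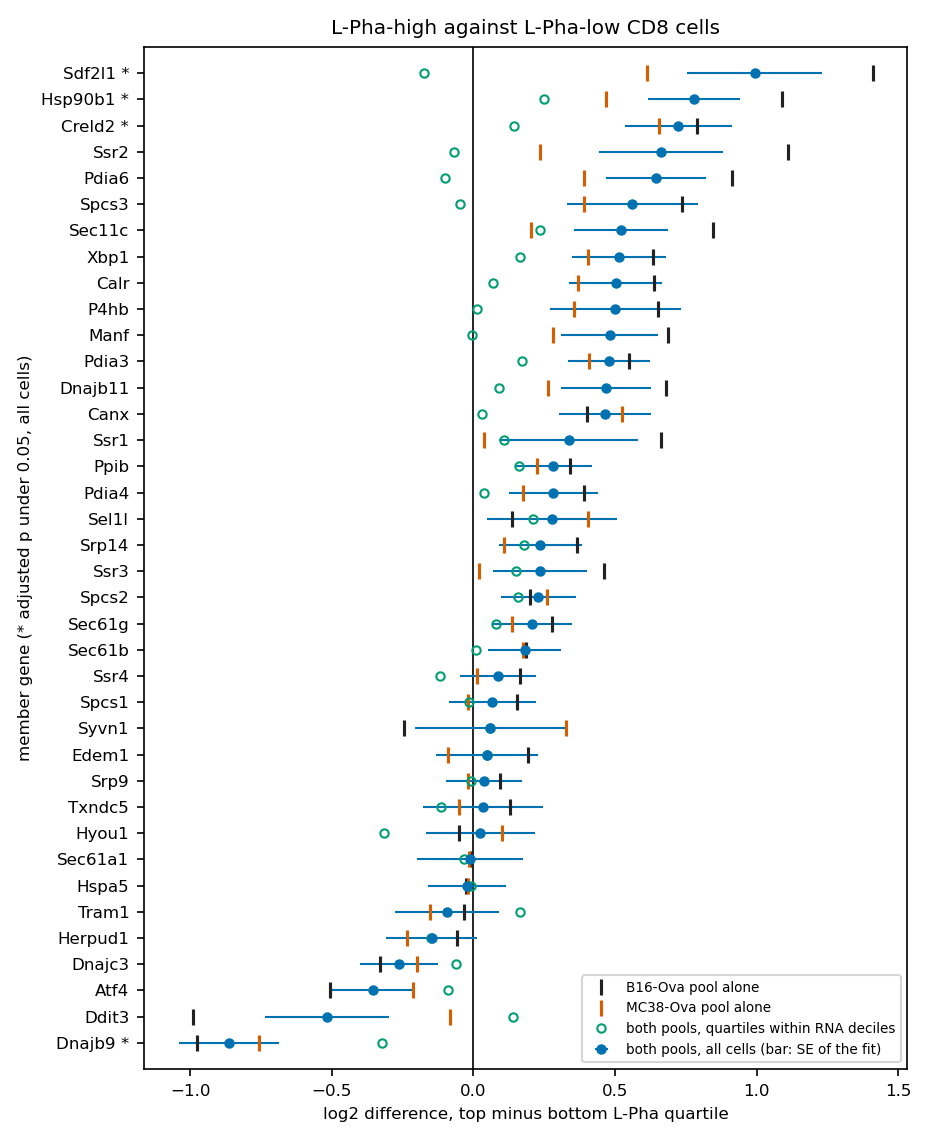
Log2 difference between L-Pha-high and L-Pha-low CD8 cells for each of the 38 members, sorted. Filled points with bars are the fit to both pools ± SE, ticks the pools alone, and open points the fit to cells matched by decile of RNA UMIs. Sdf2l1, Hsp90b1 and Creld2 stand at the top and Dnajb9 at the bottom, and the open points lie nearer to 0 for most members.

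L-Pha-high cells also held more RNA and cycled more. Median RNA was 13931 and 10614 UMIs in L-Pha-high against 5383 and 4916.5 UMIs in L-Pha-low CD8 cells, and 46.9% and 25.4% against 4.43% and 7.7% of them held at least 2 UMIs of Mki67 and Top2a. Of the 10 cell-cycle genes 6 rose, and of the 15 dissociation-stress genes 9 fell. When L-Pha-high and low cells were instead chosen inside each decile of RNA UMIs, which brought median RNA to 7377 and 6951 against 7337 and 6951 UMIs and cycling shares to 26.7% and 15.8% against 16.2% and 13.1%, 0 of 38 members passed beside 0.198% of all genes. The member median was then 0.03. Hsp90b1 remained positive at 0.25 ± 0.13 (adjusted p 0.555) and Dnajb9 negative at −0.32 ± 0.14 (adjusted p 0.459), while Sdf2l1 turned to −0.18 ± 0.18 (adjusted p 0.826) and Ddit3 to 0.14 ± 0.17 (adjusted p 0.866). The share of the L-Pha differences that goes with depth or cycling was not tested.

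Without cycling cells (any Mki67 or Top2a UMI), 2 members passed beside 2.71% of all genes. Sdf2l1 was then at 80.15 and 62.38 against 37.46 and 43.5 CPM (0.72 ± 0.17, adjusted p 0.0425). Dnajb9 was at 26.72 and 50.55 against 47.08 and 79.96 CPM (−0.78 ± 0.19, adjusted p 0.0395). Hsp90b1 (0.56, adjusted p 0.170) and Creld2 (0.47, adjusted p 0.333) kept their direction below the threshold. The B16-Ova L-Pha-high CD8 cells also held melanoma markers at 566.3 CPM against 33.3 CPM in low cells, erythroid markers at 258.6 against 3.25 CPM and macrophage markers at 109.5 against 33.3 CPM. In MC38-Ova, fibroblast markers were at 118.2 against 5.98 CPM, macrophage markers at 134.4 against 39.2 CPM and dendritic cell markers at 622.1 against 227.7 CPM. Without cells that held at least 3 UMIs of macrophage, fibroblast, melanoma or erythroid markers, the same 4 members passed. Pdia3 (0.52, adjusted p 0.0466) and Sec11c (0.61, adjusted p 0.0443) joined them, beside 4.75% of all genes. Dendritic cell markers were not part of this filter. With CD8 cells alone in the fit, 0 members passed.

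Across all 4 L-Pha quartiles of CD8 cells, the summed level of the 38 genes went through 5587, 6326, 7574 and 8293 CPM in B16-Ova and through 6495, 6822, 7120 and 7563 CPM in MC38-Ova. Hsp90b1 went through 315.4, 418.7, 589.3 and 775.3 CPM in B16-Ova and 383.6, 413.6, 474.8 and 551.8 CPM in MC38-Ova. Dnajb9 went through 48.78, 49.7, 37.5 and 28.43 CPM in B16-Ova and 75.4, 69.7, 54.98 and 46.28 CPM in MC38-Ova. The summed level and Hsp90b1 were thus ordered by quartile in both pools, and Dnajb9 was lowest in the top quartile of both. Hspa5 stayed between 542.1 and 669.0 CPM throughout.

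**Figure D3:**
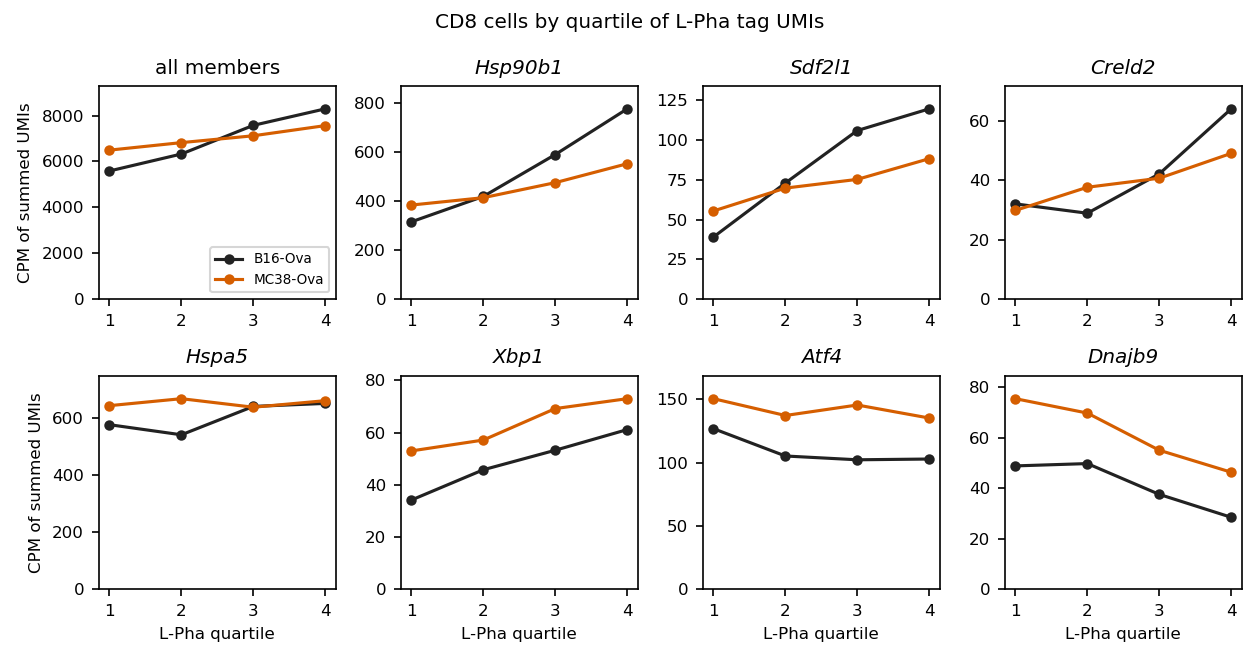
CPM of summed UMIs (vertical axes start at 0) in CD8 cells by quartile of L-Pha tag UMIs, 1 line per hashtag pool, for the 38 genes together and 7 members. Hsp90b1, Sdf2l1 and Xbp1 climb in both pools, Dnajb9 is lowest in the top quartile, and Hspa5 shows no such order.

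In Treg, CD4 and innate-like cells 0 members passed in edgeR's test, beside 1.57%, 0.309% and 0.237% of all genes. DESeq2 also called 0 in each, and at an unadjusted p under 0.05 there were 11, 5 and 4 members (28.9%, 13.2% and 10.5%, beside 16.9%, 15.4% and 10.2% of all genes). The CD4 and innate-like shares are thus near those of all genes. Hsp90b1 had higher CPM in L-Pha-high cells of each class and pool: 707.5 and 774.5 against 496.1 and 484.2 CPM in Treg (0.60 ± 0.16, adjusted p 0.0906), 613.5 and 630.3 against 400.6 and 474.2 CPM in CD4 (0.50 ± 0.17, adjusted p 0.187), and 544.4 and 463.9 against 351.9 and 352.2 CPM in innate-like cells (0.46 ± 0.17, adjusted p 0.376). Pdia6 showed 0.71 ± 0.19 in Treg cells (adjusted p 0.086), where the member median was 0.27 against 0.02 over all genes, and Manf, a secreted ER stress protein, 0.61 ± 0.18 (adjusted p 0.121). Without other-marker cells these became 0.36 for Hsp90b1 (adjusted p 0.369), 0.31 for Pdia6 (adjusted p 0.51) and 0.47 for Manf (adjusted p 0.254) in Treg cells, and 0.16 for Hsp90b1 in innate-like cells (adjusted p 0.94). Within RNA deciles 0 members passed in these 3 classes, beside 0.073%, 0.0834% and 0.073% of all genes. In innate-like cells without cycling cells 0 passed beside 0.0385%. Syvn1 and Sel1l, the ubiquitin ligase HRD1 and its partner, were lower in L-Pha-high innate-like cells in both pools (−0.82 ± 0.35, adjusted p 0.459, and −0.75 ± 0.34, adjusted p 0.474).

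Whether the L-Pha difference varied over the 4 classes was tested directly, with edgeR's test of equal coefficients. No gene of 9700 passed, 429 had an unadjusted p under 0.05, and none of these was a member. The lowest adjusted p among members was 0.999, so the CD8 changes were not shown to differ from those of the other classes. In these classes too, L-Pha-high cells held more RNA, for example medians of 10239.5 and 9077 against 4008 and 3413 UMIs in Treg cells.

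PD-1, an inhibitory receptor of stimulated T cells, was handled in the same way in CD8 and Treg cells. In PD-1-high CD8 cells 0 members passed in edgeR's test beside 2.97% of all genes, DESeq2 called 0, and 15 had an unadjusted p under 0.05 (39.5%, beside 19.7% of all genes). The direction was nonetheless shared by most: 31 of 38 were higher in both pools, 81.6% beside 32.2% of all genes, with a median of 0.20 against −0.02. Creld2 was at 59.51 and 47.81 against 27.46 and 31.62 CPM (0.76 ± 0.21, adjusted p 0.112), Xbp1 at 61.41 and 80.77 against 39.11 and 49.85 CPM (0.59 ± 0.14, adjusted p 0.0662), and Hsp90b1 at 747.4 and 524.6 against 381.5 and 391.1 CPM (0.61 ± 0.20, adjusted p 0.159). In each, both high values lay above both low values. Dnajb9 (−0.60 ± 0.14, adjusted p 0.0711), Ddit3 (−0.60 ± 0.26, adjusted p 0.255) and Atf4 (−0.33 ± 0.13, adjusted p 0.205) were lower in both pools.

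Here too the groups differed in depth (medians of 11936 and 8870 against 6005 and 5978 RNA UMIs) and in cycling cells (37.7% and 18.1% against 8.87% and 9.54%). Without cycling cells 5 members passed, all higher, beside 9.06% of all genes: Xbp1 (65.3 and 75.46 against 33.71 and 45.57 CPM, 0.76 ± 0.15, adjusted p 0.00566), Ssr2 (0.60, adjusted p 0.0191), Sec11c (0.51, adjusted p 0.0292), Hsp90b1 (0.60, adjusted p 0.0446) and Srp14 (0.40, adjusted p 0.0465). Without other-marker cells Ssr2 alone passed (0.64, adjusted p 0.0445), beside 4.48% of all genes. Within RNA deciles 0 members passed beside 4.47% of all genes, and the median was 0.11 with 28 positive. In Treg cells 0 members passed beside 0.0% of all genes, none had an unadjusted p under 0.05, DESeq2 called 0, and the median was −0.04. That count stayed at 0 without other-marker cells (0.0103% of all genes) and without cycling cells (0.0228%). The test of a different PD-1 effect in CD8 and Treg cells, made after seeing the data, called 4 of 10127 genes and 0 members (lowest adjusted p 0.486). At an unadjusted p under 0.05 there were 810 genes (8.0%), 8 of them members.

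CD8 cells were also described by state, with no test, since cells of 1 pool are not replicates, and with intervals that cover counting error only. Cycling cells (at least 2 UMIs of Mki67 and Top2a, 392 and 357 cells) held 1.27 times (95% interval 1.25 to 1.28) the summed level of the 38 genes in non-cycling B16-Ova cells and 1.21 times (1.19 to 1.22) that in MC38-Ova. Sdf2l1 had the highest ratio, 2.16 (1.94 to 2.42) and 2.24 (2.01 to 2.5), followed by Creld2 at 2.12 and 1.96 and Hsp90b1 at 1.75 and 1.72. Dnajb9 had ratios of 0.679 (0.562 to 0.817) and 0.676 (0.577 to 0.788), the 1 member whose interval lay below 1 in both pools. Non-cycling cells held no UMI of either gene, and cells with 1 UMI were left out. Median RNA was 15033.5 and 11315 UMIs in cycling against 6335 and 6230 UMIs in non-cycling cells. No ratios over all genes stand beside these, or beside those of the next state.

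CD8 cells rich in the granzyme genes Gzmc and Gzmf (at least 10 UMIs together, 95 and 61 cells) stood at 1.35 times (1.33 to 1.38) and 1.22 times (1.2 to 1.25) the summed level of CD8 cells with none. Creld2 was at 2.09 and 1.65, Sdf2l1 at 1.85 and 2.19, and Sec11c, the catalytic subunit of a signal peptidase complex, at 1.77 and 1.42. Ddit3 was at 0.501 and 0.489, Dnajb9 at 0.623 and 0.615 and Atf4 at 0.839 and 0.673. Hspa5 differed between the pools, at 1.42 (1.34 to 1.5) and 0.939 (0.86 to 1.02). Median RNA was 16142 and 13229 UMIs in these cells against 6909 and 6675 in those with none.

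**Figure D4:**
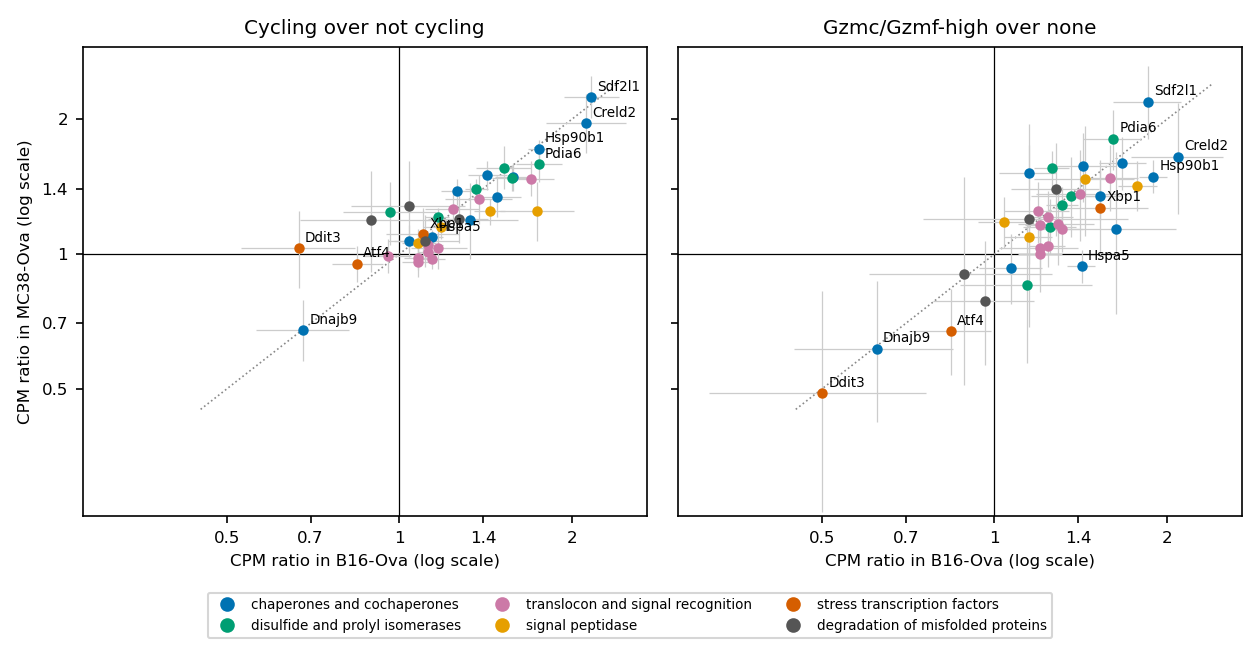
Ratio of CPM in cycling over non-cycling CD8 cells (left) and in Gzmc- and Gzmf-rich CD8 cells over those with none (right), B16-Ova on the horizontal and MC38-Ova on the vertical axis (log scales). Each point is a member, coloured by role, with 95% counting intervals in grey. Most points lie above 1 in both pools, and Dnajb9 lies at the lower left of both panels.

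The last comparison set MC38-Ova against B16-Ova. With 1 pool per tumour it has no test, and ratios carry exact conditional 95% intervals for counting error. Members past 1.5-fold were few: 1 of 38 higher in MC38-Ova CD8 cells beside 5.47% of all genes counted, and 1 of 38 in MC38-Ova Treg cells beside 4.95%. In CD4 and innate-like cells 0 members were past it beside 3.68% and 4.15%. In B16-Ova 0 members were higher by that fold in any class, beside 5.7%, 3.59%, 2.72% and 1.76% in CD8, Treg, CD4 and innate-like cells.

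The gene past it in CD8 cells was Dnajb9, with 58.22 CPM in MC38-Ova and 37.73 CPM in B16-Ova, a ratio of 1.54 (1.4 to 1.7). Its ratio was above 1 in every class, at 1.2 in Treg, 1.09 in CD4 and 1.26 in innate-like cells, and 1.57 among CD8 cells without Mki67 or Top2a. P4hb, which encodes protein disulfide isomerase, a subunit of the collagen prolyl 4-hydroxylase, stood at 306.1 CPM in MC38-Ova and 187.3 CPM in B16-Ova Treg cells, a ratio of 1.63 (1.52 to 1.76). Beside it, fibroblast markers were at 340.2 against 6.8 CPM and melanoma markers at 195.5 against 36.0 CPM in MC38-Ova against B16-Ova Treg cells, and their separate parts were not tested. When 44 MC38-Ova and 38 B16-Ova Treg cells with at least 3 UMIs of markers of other types were left out, P4hb was at 203.8 and 188.7 CPM, a ratio of 1.08 (0.994 to 1.18). Its L-Pha difference in MC38-Ova Treg cells (443.4 CPM in high against 194.8 CPM in low cells) became 207.6 against 196.5 CPM.

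Besides Dnajb9 and P4hb, the genes Txndc5, Ssr3 and Ddit3 had ratios above 1 in all 4 classes, though Txndc5 was at 0.888 in CD4 cells once other-marker cells were left out. Calr, Manf, Pdia3, Srp14 and Herpud1 had ratios below 1 in all 4. How many of all genes kept 1 direction in all 4 classes was not counted. Some of these ratios lay close to 1. In CD4 cells Txndc5 was at 37.4 against 36.67 CPM and Srp14 at 207.7 against 215.1 CPM, with overlapping counting intervals. Calr, the calcium-binding lectin chaperone, was at 221.6 against 270.7 CPM in CD8 cells (0.819) and at 181.6 against 255.0 CPM in innate-like cells (0.712). Atf4 was higher in MC38-Ova CD8 cells, at 140.7 against 106.5 CPM (1.32), and at 0.994 in CD4 cells.

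**Figure D5:**
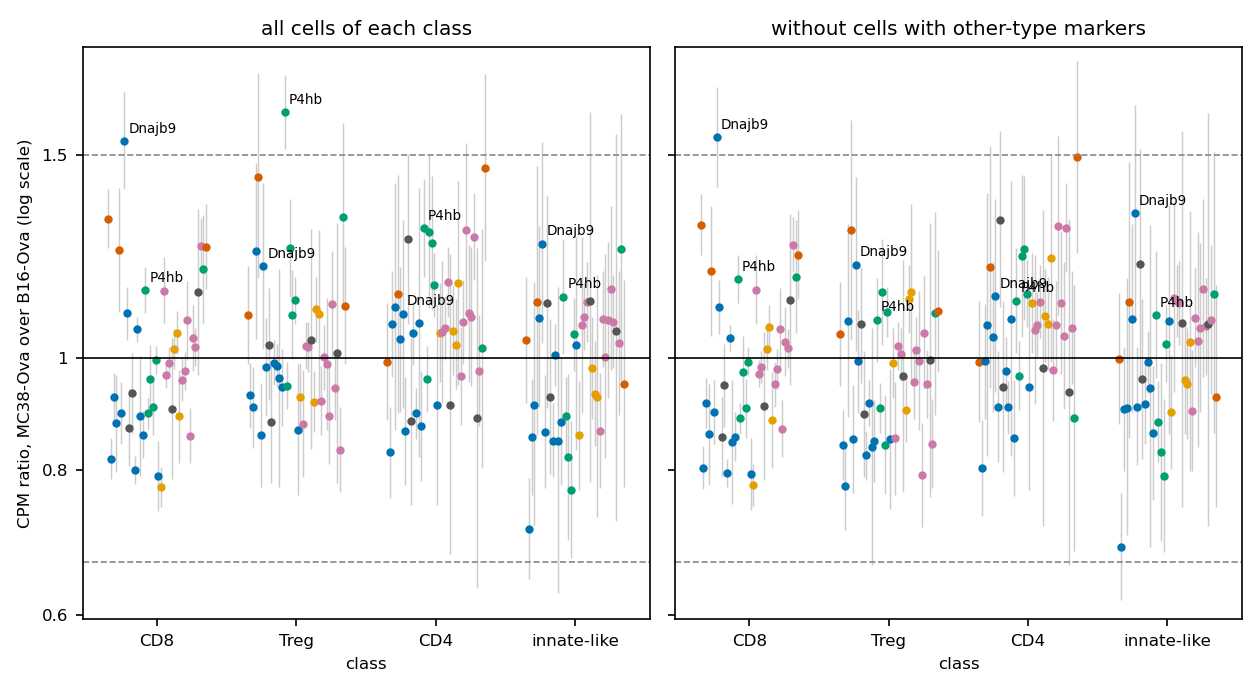
CPM ratio of MC38-Ova over B16-Ova (log scale) for each member in each class, coloured by role as in the plot of CD8 states, with 95% counting intervals in grey and dashed lines at 1.5-fold. Left, all cells; right, without cells that hold at least 3 UMIs of macrophage, fibroblast, melanoma or erythroid markers. P4hb in Treg cells is at 1.63 on the left and 1.08 on the right, while Dnajb9 in CD8 cells is at 1.54 and 1.55.

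Other genes of the pathway were followed as 2 lists, 49 further folding and entry genes and 22 targets of Atf4 and Ddit3. In Treg against CD8 cells 6 of 47 tested folding and entry genes rose and 0 fell, beside 8.41% of all genes higher and 15.5% in either direction, so the count says little about the list. Among the 6 was Ern1, which encodes the sensor IRE1 that splices Xbp1 mRNA. Ern1 was at 30.63 and 24.58 CPM in Treg against 17.82 and 12.94 CPM in CD8 cells (0.72 ± 0.16, adjusted p 0.0238). In CD4 cells, where Xbp1 was lower than in Treg cells, Ern1 was higher still, at 45.49 and 31.2 CPM. Creb3l2, a membrane-bound factor related to Atf6, was at 30.28 and 28.19 against 10.1 and 8.645 CPM (1.52 ± 0.13, adjusted p 0.000432). Ero1l, the oxidase that recharges disulfide isomerases, also rose (0.79 ± 0.17, adjusted p 0.0201). In CD8 against CD4 cells 0 rose and 2 fell, beside 6.88% of all genes in either direction: Ern1 (−1.20 ± 0.17, adjusted p 0.00972) and Ero1l (−0.78 ± 0.17, adjusted p 0.0405).

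With L-Pha in CD8 cells, 2 of 45 folding and entry genes rose and 1 fell, a count near that over all genes (5.4% in either direction), so the genes are named as single genes. Fkbp2, an ER prolyl isomerase, rose by 0.92 ± 0.20 (adjusted p 0.0283), and Kdelr2, the receptor that returns escaped chaperones to the ER, rose by 0.57 ± 0.15 (adjusted p 0.0473). Crebrf fell by 0.74 ± 0.19 (adjusted p 0.0479). Of 16 tested targets of Atf4 and Ddit3, Asns (2.30 ± 0.39, adjusted p 0.0154) and Psat1 (1.19 ± 0.19, adjusted p 0.0136), which make asparagine and serine, rose. Ppp1r15a (GADD34), which reverses the PERK signal, fell from 363.4 and 388.7 to 156.7 and 242.8 CPM, by 1.07 ± 0.19 on the log2 scale (adjusted p 0.0158). Asns and Psat1 also rose in L-Pha-high Treg cells (2.57 ± 0.53, adjusted p 0.0384, and 1.20 ± 0.23, adjusted p 0.0297). Ddit4, another target on the list, rose there too, from 264.4 and 212.0 to 556.9 and 449.5 CPM (1.09 ± 0.19, adjusted p 0.0265). Of all genes 1.57% passed in that comparison. In L-Pha-low cells Asns was at only 2.439 and 3.89 CPM in CD8 and 4.852 and 3.228 CPM in Treg cells. In L-Pha-high cells it was at 22.04 and 14.52 CPM in CD8 and 15.63 and 32.67 CPM in Treg cells. Its fold changes thus rest on few UMIs in the low groups.

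Members with and without the promoter element were set side by side as a description. In L-Pha-high against low CD8 cells, the 10 members with ERSE or ERSE-II had a median of 0.47 (range −0.26 to 0.78) and 2 of them passed, Hsp90b1 and Creld2. The 21 members with a promoter but neither element had a median of 0.23 (−0.86 to 0.99), and 2 of them passed, Sdf2l1 and Dnajb9. Within RNA deciles the medians were 0.04 and 0.05. In Treg against CD4 cells they were 0.22 and 0.18. The ranges overlapped in each comparison.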

How the data were processed

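RNA and antibody-tag UMI counts of 19912 barcodes were used as the authors deposited them, as raw counts per gene and cell, made with Cell Ranger 3.1.0, R 3.6.1 and Seurat 3.1.0 on mm10, per the submitters' processing notes, which give no roles. Receptor sequences of the third library were not analysed here. Cells needed 500 genes, at most 10% mitochondrial UMIs, and a larger hashtag of at least 150 UMIs and 3 times the other, which dropped 2388 barcodes with both hashtags; doublets within a tumour remained, and Scrublet (scanpy 1.11.5, expected rate 0.25) served only as an alternative. UMIs were summed per pool and class, or per pool, class and tag group. Cells are not replicates. With the pool as block, a steady difference between the pools does not enter, and p-values rest on how far the compared differences vary between the 2 pools. That spread was shared over classes and drawn toward that of other genes (prior degrees of freedom 4.75, 8.07 and 5.73 for the class, L-Pha and PD-1 fits).

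Sums were tested with edgeR 4.0.16 in R 4.3.3 (filterByExpr, TMM, quasi-likelihood, pool as block), with Benjamini-Hochberg adjustment and a threshold of 0.05. The class, L-Pha and PD-1 fits had 3, 4 and 2 residual degrees of freedom. The pipeline was tested on simulated data. Those held planted changes but no other difference between pools or classes, unlike these data, and are not used as support here. Ratios between tumours used members and genes with at least 100 UMIs over the pair, and exact 95% intervals from scipy 1.17.1, which cover counting error only. Coordinates are from GENCODE vM21 and promoters from RefSeq (GRCm38.p6), which held 31 of 38 members. Values in full are given for members that passed, the 3 transcription factors and the members with the largest differences. The members, gene lists and tests were chosen with earlier results of these data known. Alternatives were DESeq2 1.42.0, library size scaling, no filter, no block, other cell rules, thinned cells and other tag groups.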

Additional observations from a re-analysis of the deposited data

How the results depend on the processing

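Counts of members that passed, out of 38, are given by setting where they differed from the value first reported, each with the share of all genes that passed there. For CD8 against CD4 (2, 6.88%) they were 1 with library size scaling (7.3%), 4 with no filter on low counts (7.34%), 3 in thinned cells, 2 higher and 1 lower (9.98%), 1 with only those classes fitted (3.89%) and 4 without other-marker cells (14.5%). For Treg against CD4 (0, 3.35%) they were 1 with DESeq2 (4.46%), 4 with no filter (3.92%), 3 in thinned cells (6.6%), 7 with only those classes fitted (7.19%), 1 without other-marker cells (6.41%) and 4 without cycling cells (7.36%). For innate-like against CD4 (1, 9.47%) they were 3 with library size scaling (11.9%), 2 with no filter (7.32%), 3 in thinned cells (12.0%), 3 with only those classes fitted (17.4%) and 3 without cycling cells (16%). For Treg against CD8 (1, 15.5%) they were 2 with DESeq2 (11.6%), 7 with library size scaling (16.8%), 3 with no filter (11.8%), 5 in thinned cells (19.2%), 3 with only those classes fitted (16.1%), 7 without other-marker cells (22.8%) and 6 without cycling cells (25.2%).

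For L-Pha in CD8 cells (4, 5.4%) they were 1 with DESeq2 (4.89%), 6 with library size scaling (5.69%), 10 with no filter (7.22%), 3 with the stricter hashtag rule (2.77%), 3 in thinned cells (5.46%), 0 with CD8 alone fitted (0.788%), 0 within RNA deciles (0.198%), 2 with the tag scaled to the cell's own hashtag (3.35%), 6 without other-marker cells (4.75%) and 2 without cycling cells (2.71%). L-Pha in Treg cells (0, 1.57%) gave 4 with no filter (4.07%), and in CD4 cells (0, 0.309%) 3 with CD4 alone fitted (8.23%). PD-1 in CD8 cells (0, 2.97%) gave 1 with library size scaling (3.4%), 10 with no filter (6.8%), 2 in thinned cells (5.36%), 1 without other-marker cells (4.48%) and 5 without cycling cells (9.06%). Members past 1.5-fold between tumours, over the 4 classes (2, 8.34% of all genes counted), were 6 in thinned cells (6.53%), 4 without the highest Scrublet scores (8.75%) and 1 without other-marker cells (7.75%). DESeq2 shares are over the genes it adjusted. The cause of these moves was not tested.

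The pool served as the replicate block. With no replicate block 0 members passed in CD8 against CD4 (1.06%), innate-like against CD4 (5.49%), Treg against CD8 (8.19%) and L-Pha in CD8 cells (0.0%). Direction was followed over the settings only for called genes and for Xbp1, Atf4 and Ddit3. Among these, 2 reversed for L-Pha in CD8 cells within RNA deciles: Sdf2l1 to −0.18 and Ddit3 to 0.14. Leaving out a pool gave values with no test, of the same sign for each called gene.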
